A study of Homo sapiens with 24 samples.

Results

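A group of 10 immediate-early genes around EGR, FOS and JUN was followed in HK-2 cells, an immortalised line from human proximal tubule. They are EGR1, EGR2, EGR3, FOS, FOSB, JUN, JUNB, IER2, IER3 and DUSP1, taken by symbol through their Ensembl IDs, and each of the 10 matched 1 of the 65180 gene IDs of the deposited count table. All 10 passed the filter on low counts in both experiments.

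The study asked what an activator of soluble guanylate cyclase changes in these cells under low oxygen and after TGF-β1. All cells were first kept without serum overnight and then treated for 24 h. The 6 groups were normoxia with solvent (5 libraries), normoxia with the activator BAY 60-2770, called BAY here (3), hypoxia at 0.3% oxygen with solvent (3), hypoxia with BAY (3), normoxia with TGF-β1 at 2 ng/mL (5) and normoxia with TGF-β1 and BAY (5). Controls received the solvents of both agents. The labels give the BAY concentration as 1 mM, which is unusually high for a compound of this kind, and the unit could not be checked from the data. All libraries come from 1 cell line and the replicates are labelled only as biological, so a p-value here speaks only of the spread among these cultures. A single time point was taken, 24 h after treatment, so the levels describe a late state and not the early peak for which these genes are known.

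Immediate-early genes are transcribed within minutes of a stimulus without new protein synthesis. Kinase cascades, above all ERK and p38, reach them through serum response factor and its partners on CArG boxes, and cyclic AMP or cyclic GMP signalling reaches them through CREB on cAMP response elements. EGR proteins are zinc-finger transcription factors. FOS and JUN proteins pair to form the AP-1 transcription factor, in which JUNB can oppose JUN. DUSP1 is a phosphatase that switches off p38, JNK and ERK, and thus a feedback inhibitor of the same cascades. In kidney tubule these genes are known as early markers of injury and of growth factor stimulation.

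The promoters of 3 genes are shown, those of EGR1, which had the widest spread of the members between control cultures, and of FOSB and DUSP1, the members that were higher when BAY was added to TGF-β1. Each is the 250 bases before the RefSeq transcription start on GRCh38.p14, 5′ to 3′ on the strand of the gene. The positions are chr5:138465229-138465478 on the plus strand for EGR1, chr19:45467746-45467995 on the plus strand for FOSB and chr5:172771196-172771445 on the minus strand for DUSP1. Capitals mark cAMP response elements (the core TGACG, or CGTCA where it lies on the other strand, and the full site TGACGTCA) and CArG boxes.
EGR1: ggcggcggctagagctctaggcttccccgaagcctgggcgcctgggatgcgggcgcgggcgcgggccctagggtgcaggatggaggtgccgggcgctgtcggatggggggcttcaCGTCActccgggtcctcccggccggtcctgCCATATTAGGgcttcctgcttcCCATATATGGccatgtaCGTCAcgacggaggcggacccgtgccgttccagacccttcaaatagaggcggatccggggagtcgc
FOSB: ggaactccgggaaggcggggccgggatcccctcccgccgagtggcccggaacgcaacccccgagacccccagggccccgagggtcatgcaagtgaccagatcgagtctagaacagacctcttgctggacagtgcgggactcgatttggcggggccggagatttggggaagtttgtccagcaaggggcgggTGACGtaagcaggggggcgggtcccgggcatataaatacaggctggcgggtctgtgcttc
DUSP1: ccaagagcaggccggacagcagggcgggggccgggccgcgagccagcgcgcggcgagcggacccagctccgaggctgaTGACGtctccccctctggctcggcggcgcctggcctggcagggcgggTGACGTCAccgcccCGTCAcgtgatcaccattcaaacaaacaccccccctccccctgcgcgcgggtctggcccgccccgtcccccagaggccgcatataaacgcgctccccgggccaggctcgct
EGR1 held 2 CArG boxes, 105 and 83 bases before the start, and 2 cores, 135 and 66 bases before it. FOSB held 1 core, 60 bases before the start. DUSP1 held the full cAMP response element 125 bases before the start, which contains a core on each strand, and 2 further cores. Counted on both strands, the core was in 21.2% of 35116 RefSeq promoter windows of this length, the full element in 1.65%, a CArG box in 1.16%, the EGR site GCGNGGGCG in 8.42% and the AP-1 site TGANTCA in 6.57%. The table held 8 of the 10 members, all but EGR3 and IER3. Each of these 8 had at least 1 core, EGR2 only before the third of its 3 starts, where it also had 1 CArG box. EGR1 had 1 EGR site, and no window of the 8 members held TGANTCA. These matches describe letters and not bound sites.

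Facts that concern all members come first. Library totals ran from 78862528 to 105571250 estimated counts. Levels are given as CPM, counts scaled by library depth, with TMM scaling over the 24 libraries. The 3 normoxic groups of 5 libraries each fell into separate subsets on the first principal component of the variation inside groups (29.4% of that variance), computed from genes outside the members and the pathway lists. Subset 1 was solvent replicates 1, 2 and 5, TGF-β1 replicates 1 and 2, and TGF-β1 with BAY replicates 1 and 2, and subset 2 the other 8 libraries of these groups. The labels give no batch, and what separates the subsets was not tested. No such split was seen among the 3 libraries of normoxia with BAY or of either hypoxic group. Each group was centred on its own mean, so a group wholly like 1 subset would show no split either. Against solvent, a treatment effect and a subset difference cannot be told apart in these groups. The 12 markers of the line summed to between 1557 and 3851 CPM. The keratin genes KRT8 and KRT18 averaged 631 and 295 CPM over all libraries. Of the tubule markers GGT1, SLC34A1 and CUBN averaged 166, 3.04 and 1.00 CPM, and ANPEP, LRP2 and AQP1 averaged 0.266, 0.150 and 0.575 CPM. All 4 endothelial markers had group means below 0.1 CPM. Of 5 immune markers PTPRC, CD3E and LYZ had group means below 0.1 CPM, with CD74 and CD68 at 159 and 132 CPM over all libraries. Of 6 fibroblast markers COL1A2 and COL3A1 had group means below 0.1 CPM, with COL1A1, LUM, PDGFRB and DCN at 112, 90.4, 6.16 and 1.88 CPM over all libraries. The 3 podocyte markers summed to between 1.75 and 7.28 CPM, nearly all PODXL, and the 4 distal nephron markers to between 0 and 0.182 CPM.

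IER3, a stress-induced regulator of survival, could not be measured. Its matched ID, in the histocompatibility region of chromosome 6, held 0 to 85 estimated counts per library, or 0 to 0.892 CPM. GENCODE 29 lists 2 IER3 transcripts under this ID and 10 on other copies of the region, whose IDs are not paired with the symbol in the tables used here, so reads of the gene may be counted elsewhere. No fold change is given for it. It was not called in any comparison of the main test, but was called in hypoxia with the replicate number as a block (adjusted p = 0.015, edgeR). IER3 stays in every count of 10 members below, and its fold change enters the medians of the members' fold changes.

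Levels between genes were compared per kilobase of merged exons. In the 5 solvent controls JUN (chromosome 1, 58780788 to 58784327) was highest, at a mean of 49.6 CPM per kb (35.9 to 60.5). JUNB (chromosome 19, 12791496 to 12793315), EGR1 (chromosome 5, 138465490 to 138469315), DUSP1 (chromosome 5, 172768090 to 172771195) and IER2 (chromosome 19, 13150415 to 13154908) followed at 26.6, 25.7, 24.6 and 21.9 CPM per kb. The ranges of these 4 overlapped, and EGR1 alone spanned 2.10 to 44.7. FOS (chromosome 14, 75278774 to 75282230) was next at 3.38 CPM per kb (0.618 to 5.33) and overlapped with EGR2 (chromosome 10, 62811996 to 62919900) at 1.55 (1.04 to 1.96). FOSB (chromosome 19, 45467995 to 45475179) was at 0.659 CPM per kb (0.303 to 0.986), below all EGR2 values, and EGR3 was lowest at 0.0980. Gene positions are from GENCODE 29 on GRCh38.

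The solvent controls were not uniform. EGR1 stood at 140, 124 and 125 CPM in solvent replicates 1, 2 and 5 and at 7.15 and 6.58 CPM in replicates 3 and 4, a mean of 80.7 ± 67.7 CPM (SD, n = 5). FOS stood at 17.3, 16.8 and 16.4 CPM in replicates 1, 2 and 5, against 2.21 and 2.00 CPM. The high libraries were those of subset 1 for both genes, with no library in between. EGR1 spanned a 21.3-fold range among the 5 controls, and 10 of 14871 genes at 1 CPM or more spanned as wide a range. FOS spanned 8.63-fold, and 30 of the 14871 genes did so or more, FOS included.

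**Figure D1:**
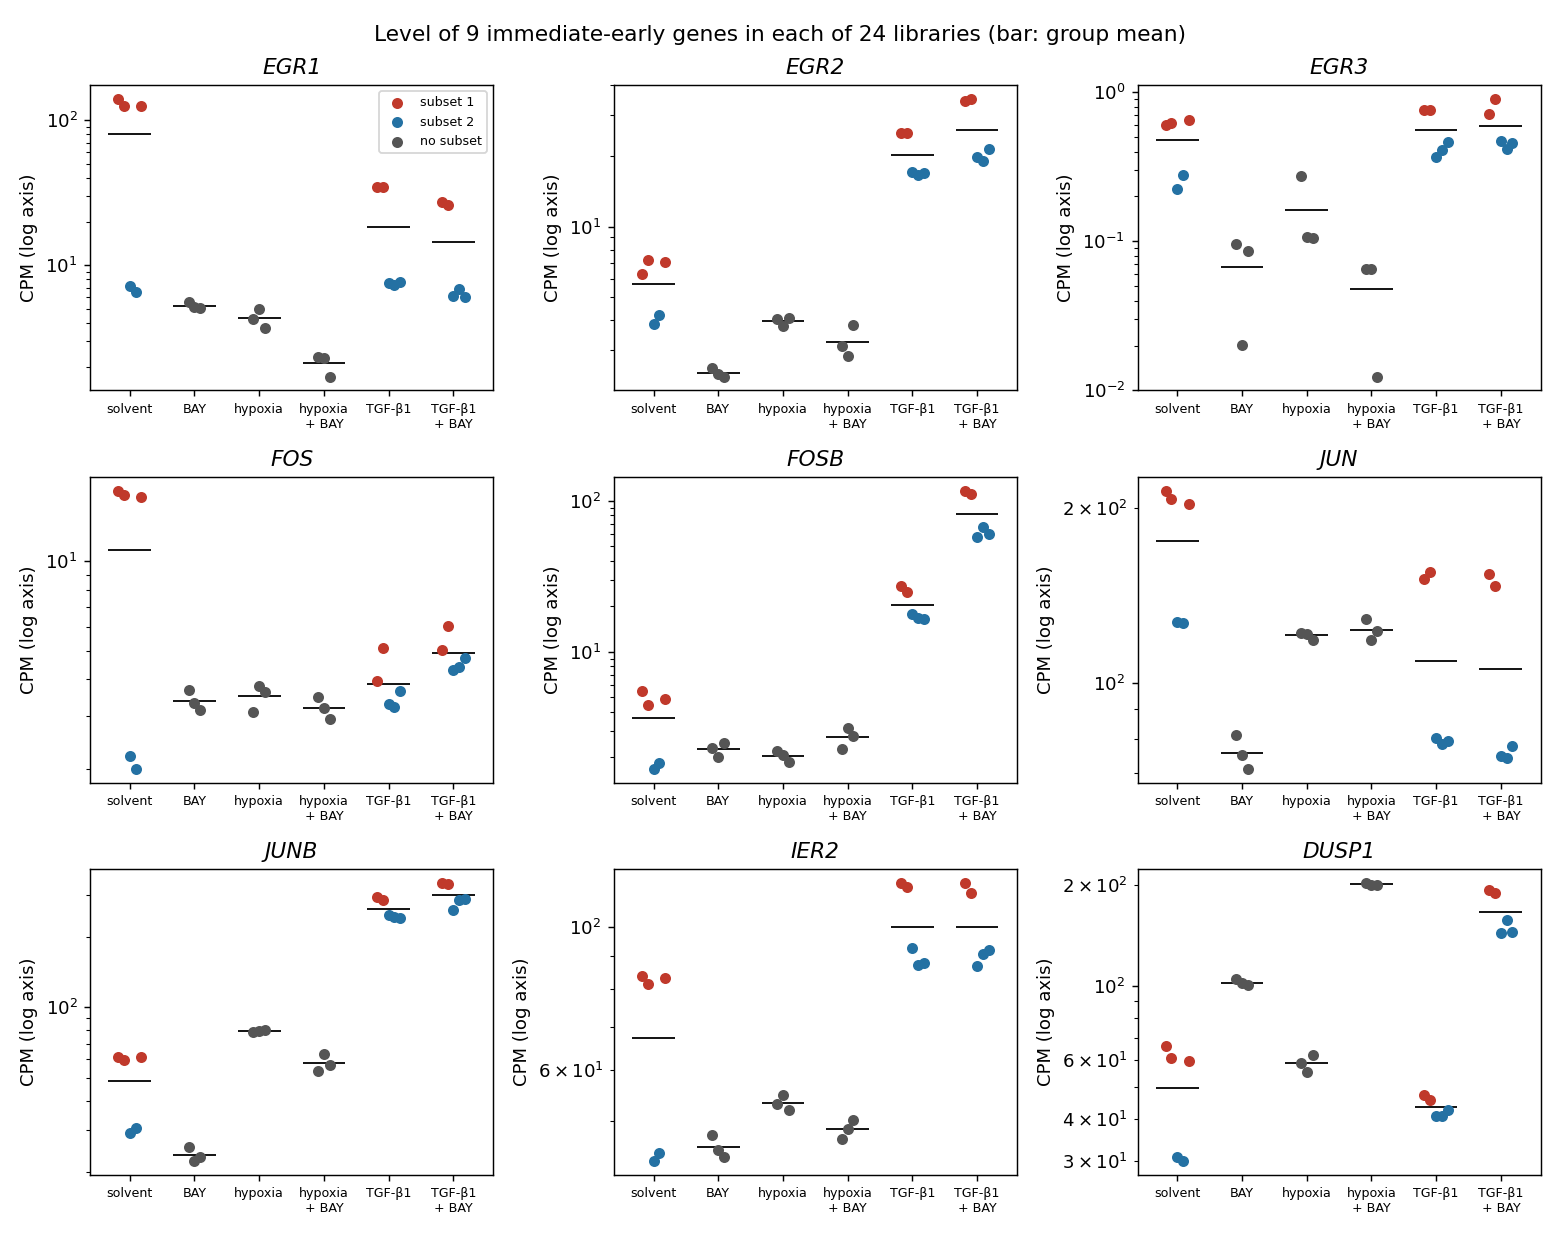
Level of 9 members in each of 24 libraries, in CPM on a log axis, by group, with a bar at the group mean. Red points are subset 1, blue points subset 2, and grey points groups without a split. EGR1 in solvent lies at 124 to 140 CPM in subset 1 and at 6.58 to 7.15 in subset 2, and with BAY alone at 5.08 to 5.57.

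The other members split the same way by smaller factors. FOSB stood at 5.47, 4.41 and 4.88 CPM in solvent replicates 1, 2 and 5, against 1.68 and 1.85 CPM in replicates 3 and 4. JUNB stood at 61.5, 59.8 and 61.2 against 29.2 and 30.7 CPM, and DUSP1 at 66.0, 61.1 and 59.8 against 31.0 and 30.1 CPM. In 9 of 10 members, all but IER3, each subset 1 control exceeded both subset 2 controls. How many of all genes separated in this way was not counted, so this is not read as particular to the members. The ratio of the subset means was 18.9 for EGR1, 7.99 for FOS, 2.79 for FOSB, 2.49 for EGR3, which lay below 1 CPM, 2.04 for DUSP1, 2.03 for JUNB, 1.89 for IER2, 1.70 for EGR2 and 1.64 for JUN. At 1 CPM or more, 5 of 8 members were at least 2-fold higher in subset 1, against 0.376% of 14908 genes. The median ratio was 2.04 over the 8 members and 1.03 over all these genes. Of the other genes, 2 had a ratio at least as high as EGR1 and 4 at least as high as FOS.

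With TGF-β1 the split had other sizes. EGR1 stood at 34.7 and 34.3 CPM in TGF-β1 replicates 1 and 2 against 7.50, 7.29 and 7.64 CPM in replicates 3, 4 and 5, a ratio of 4.62. JUN had 151 and 155 against 80.4, 78.5 and 79.3 CPM, a ratio of 1.93. FOS, with the second-widest split in solvent, had 3.94 and 5.10 against 3.31, 3.23 and 3.64 CPM, a ratio of 1.33. With BAY on TGF-β1 the ratio was 4.21 for EGR1, 1.99 for JUN, 1.85 for FOSB and 1.24 for FOS. In both groups EGR1 was the 1 member of 8 at 1 CPM or more that passed 2-fold, against 0.458% of 14629 genes with TGF-β1 and 0.348% of 14655 with TGF-β1 and BAY. In the groups of 3 libraries EGR1 was narrow, at 5.57, 5.18 and 5.08 CPM with BAY, 4.26, 5.00 and 3.68 in hypoxia, and 2.32, 2.31 and 1.71 in hypoxia with BAY. All of these 9 values lay below the lowest solvent control. In bulk RNA, fewer cells that express a gene and less of its RNA per cell cannot be told apart.

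**Figure D2:**
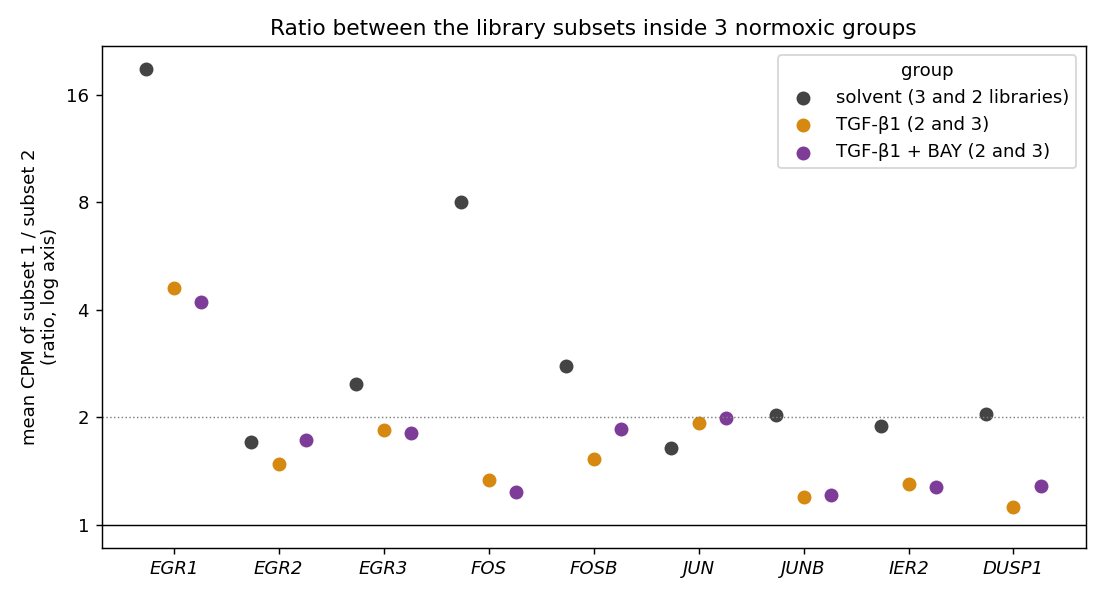
Ratio of the mean CPM of subset 1 to that of subset 2 for 9 members, on a log axis, inside solvent, TGF-β1, and TGF-β1 with BAY. The dotted line marks 2-fold. EGR1 lies at 18.9, 4.62 and 4.21, while FOS drops from 7.99 in solvent to 1.33 and 1.24.

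The tests below use all libraries of an experiment by edgeR's quasi-likelihood test with Benjamini-Hochberg adjustment over all genes tested, and every adjusted p is from that test unless another is named. A member is called at an adjusted p below 0.05. Fold changes are on the log2 scale, with their standard errors (SE). Hypoxia, BAY in normoxia and TGF-β1 were each compared with the same 5 solvent controls, so these comparisons are not independent of each other. For each, the value against the controls of either subset alone is given beside the pooled one where the direction changed, and for most changes of call.

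Against the pooled controls the EGR genes and JUN were lower in hypoxia and JUNB was higher. EGR1 fell from 80.7 ± 67.7 CPM (SD, n = 5) to 4.31 ± 0.659 CPM (SD, n = 3), a log2 fold change of -4.23 (SE 1.10, adjusted p = 0.0064). EGR2 stood at 4.03, 3.76 and 4.08 CPM in hypoxia, with 2 of 3 libraries inside the solvent range of 3.84 to 7.21 and 1 just below it, and was called at -0.55 (SE 0.18, adjusted p = 0.0175). EGR3 stood at 0.274, 0.106 and 0.105 CPM, with 1 library inside the solvent range, and was called at -1.55 (SE 0.51, adjusted p = 0.0153). The EGR falls were not alike in size. Against subset 2 controls alone EGR1 was at -0.67 (adjusted p = 0.00102), EGR2 at -0.03 (0.876) and EGR3 at -0.62 (0.401). Without hypoxic replicate 1 or 2 EGR2 lost its call (-0.55 and -0.50), and without replicate 2 or 3 EGR3 did (-1.31 and -1.32). With limma voom EGR1 was not called (-3.24, limma adjusted p = 0.099).

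Among AP-1 genes in hypoxia, JUN stood at 122, 122 and 119 CPM, below all 5 controls (127 to 214), with a log2 fold change of -0.55 (SE 0.17, adjusted p = 0.0136). JUNB, a JUN family member, stood at 78.8, 79.5 and 79.7 CPM, above all 5 controls (29.2 to 61.5), at 0.70 (SE 0.24, adjusted p = 0.0246). JUNB was called against either subset alone, at 0.39 (adjusted p = 2.97e-05) and 1.41 (1.9e-09), while JUN was at -0.78 (1.34e-09) and -0.07 (0.239). The JUNB call was lost without any 1 of the 3 hypoxic libraries, at 0.72, 0.71 and 0.69, and in a fit of the 2 groups alone at 0.71 (adjusted p = 0.0716), where JUN also lost its call (-0.55, adjusted p = 0.0512). FOS stood at 3.11, 3.79 and 3.64 CPM, between the low and high controls, and was not called (-1.64, SE 0.70, adjusted p = 0.064). It was -2.26 against subset 1 (adjusted p = 3.18e-11) and 0.74 against subset 2 (0.00023), so the direction turned with the controls used. FOSB stood at 2.20, 2.08 and 1.86 CPM, between the low and high controls, and was not called (-0.85, adjusted p = 0.053). It was -1.26 against subset 1 (adjusted p = 8.01e-07) and 0.22 against subset 2 (0.261). Without solvent replicate 3 or 4 FOSB (-1.03 and -1.01) and FOS (-1.91 in each case) were called lower in hypoxia.

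IER2, a nuclear regulator of the immediate-early response, stood at 53.2, 54.9 and 52.0 CPM in hypoxia, between the control subsets (43.3 and 44.5 against 81.6 to 83.9), and was not called (-0.35, adjusted p = 0.19). It was -0.64 against subset 1 (adjusted p = 2.54e-09) and 0.28 against subset 2 (0.000175), and was called without solvent replicate 3 (-0.47). DUSP1 stood at 59.0, 55.1 and 62.2 CPM, inside the control range, and was not called (0.23, adjusted p = 0.426). Against subset 1 it was at -0.08 (0.138) and against subset 2 at 0.94 (2.85e-09). In all, 1 of 10 members was called higher and 4 lower, against 60.8% of 21316 genes called, 29.2% higher and 31.6% lower. The members' median was -0.70 and that of all genes -0.02. With controls of subset 1 alone 1 was called higher and 7 lower, against 62.6% of genes called in that fit, and with subset 2 alone 4 higher and 1 lower, against 56.6%.

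Against the pooled controls the EGR genes, JUN and JUNB were lower with BAY in normoxia and DUSP1 was higher. EGR1 fell to 5.28 ± 0.258 CPM (SD, n = 3), below every control, at -3.91 (SE 1.07, adjusted p = 0.0126). EGR2 stood at 2.51, 2.37 and 2.30 CPM, also below every control, at -1.25 (SE 0.19, adjusted p = 7.91e-05). EGR3 stood at 0.0956, 0.0201 and 0.0862 CPM, below the lowest control of 0.226, at -2.77 (SE 0.56, adjusted p = 0.000907). EGR2 and EGR3 were called against either subset alone, at -1.52 and -0.76 for EGR2 and -3.18 and -1.87 for EGR3. EGR1 was at -4.63 against subset 1 (adjusted p = 7.89e-12) and at -0.38 against subset 2 (0.0503). EGR1 was also not called with limma voom (-2.92, limma adjusted p = 0.116) or in a fit of the 2 groups alone (-3.92, adjusted p = 0.0521).

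JUN fell with BAY to 81.4, 75.1 and 71.2 CPM, below every control, at -1.20 (SE 0.17, adjusted p = 0.000171). JUNB fell to 25.4, 22.2 and 23.1 CPM, likewise below every control, at -1.03 (SE 0.25, adjusted p = 0.00714). Both were called against either subset alone, JUN at -1.46 and -0.75 and JUNB at -1.37 and -0.35. FOS stood at 3.69, 3.32 and 3.15 CPM, between the subsets, and was not called (-1.67, SE 0.70, adjusted p = 0.0777). It was -2.31 against subset 1 (adjusted p = 7.93e-11) and 0.68 against subset 2 (0.000947), again in opposite directions. FOSB stood at 2.31, 2.01 and 2.47 CPM and was not called (-0.68, adjusted p = 0.137), with -1.12 against subset 1 (5.46e-06) and 0.36 against subset 2 (0.0964). IER2 stood at 47.6, 45.1 and 43.9 CPM and was not called (-0.55, adjusted p = 0.0617), with -0.87 against subset 1 (3.01e-10) and 0.05 against subset 2 (0.496). FOS and IER2 were called lower by DESeq2 (-1.70 and -0.57, DESeq2 adjusted p = 0.0216 and 0.0191). Without solvent replicate 3 or 4 FOS (-1.93 and -1.94), FOSB (-0.86 and -0.84) and IER2 (-0.67 in each case) were called lower with BAY.

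DUSP1 moved the other way. It stood at 104, 102 and 101 CPM with BAY, above all 5 controls (30.1 to 66.0), at 1.06 (SE 0.23, adjusted p = 0.00376). It was called against subset 1 at 0.71 (1.1e-08) and against subset 2 at 1.74 (3.45e-11). In all 1 member was called higher and 5 lower, against 43.9% of 21316 genes, 20.6% higher and 23.3% lower. The members' median was -1.11, against 0.00 over all genes. With controls of subset 1 alone 1 was higher and 8 lower, against 49.8% of genes called, and with subset 2 alone 2 were higher and 4 lower, against 33.7%. Beside this, the 6 fibroblast markers summed to 161 to 168 CPM with BAY and 107 to 132 CPM in controls, mostly LUM (123 against 80.7 CPM), with COL1A2 and COL3A1 below 0.1 CPM in both. Their part in the result was not tested.

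BAY in hypoxia raised DUSP1 and left the other members uncalled. DUSP1 stood at 202, 199.5 and 199.5 CPM, against 59.0, 55.1 and 62.2 CPM in hypoxia with solvent, at 1.76 (SE 0.27, adjusted p = 0.000409). EGR1 stood at 2.32, 2.31 and 1.71 CPM, below all 3 hypoxic controls (3.68 to 5.00), and was not called (-1.04, SE 1.28, adjusted p = 0.576). That fit shares 1 estimate of spread with the split normoxic controls. In a fit of the 2 hypoxic groups alone EGR1 (-1.01, adjusted p = 0.00052), JUNB (-0.44, 0.000301) and FOSB (0.43, 0.0418) were called as well, so that 4 of the 8 members tested there were called, 2 higher and 2 lower, against 39.0% of genes. JUNB stood at 53.8, 63.5 and 57.0 CPM, below the hypoxic controls of 78.8 to 79.7, and FOSB at 2.28, 3.12 and 2.78 CPM, above those of 1.86 to 2.20.

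EGR3 stood at 0.0654, 0.0656 and 0.0124 CPM in hypoxia with BAY, below all 3 hypoxic controls, at -1.74 (SE 0.67, adjusted p = 0.0524). With the replicate number as a block over all 14 libraries, EGR3 was called at -1.73 (adjusted p = 0.0405), and 2 members were called. That block also joins same-numbered libraries of groups that showed no pairing. The main test was unpaired and no fit paired only hypoxia with and without BAY. EGR2 stood at 3.10, 2.82 and 3.80 CPM and overlapped its controls (-0.30, adjusted p = 0.28). JUN stood at 129, 118 and 123 CPM (0.02, SE 0.19, adjusted p = 0.953), FOS at 3.50, 3.20 and 2.94 CPM (-0.14, adjusted p = 0.909) and IER2 at 46.9, 48.5 and 50.1 CPM (-0.15, adjusted p = 0.683). In the main test 1 member was called higher and none lower, and 2 had an unadjusted p below 0.05, against 37.9% of 21316 genes called, 16.5% higher and 21.4% lower. DESeq2 called 2 members and limma voom 1. The fibroblast markers summed to 224 to 242 CPM in hypoxia with BAY and 124 to 130 CPM in hypoxia with solvent, with COL1A2 and COL3A1 below 0.1 CPM in both, and their part was not tested.

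**Figure D3:**
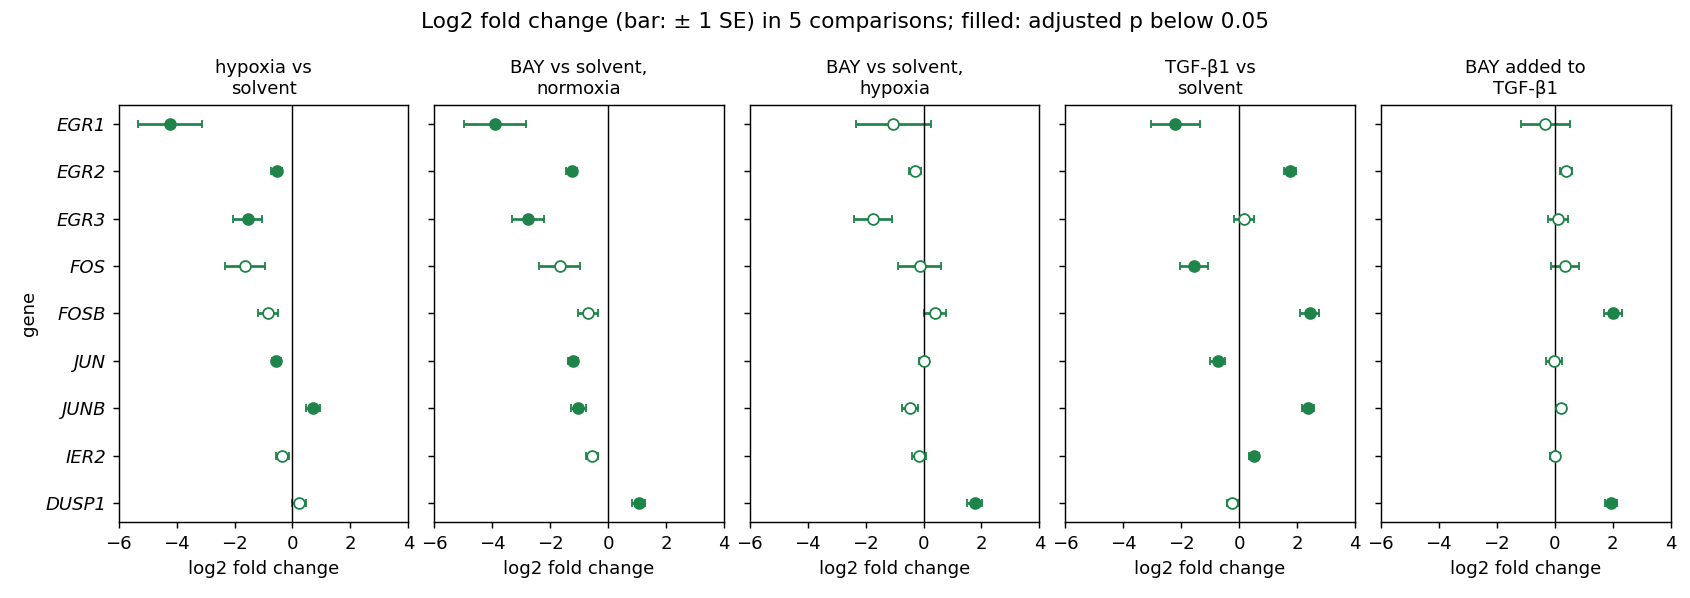
Log2 fold change of 9 members in 5 comparisons, with bars of 1 SE on either side. Filled points have an adjusted p below 0.05. EGR1 has the longest bars (SE 1.10 in hypoxia), and DUSP1 is filled and to the right with BAY in normoxia (1.06), in hypoxia (1.76) and on TGF-β1 (1.94).

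An interaction term compared what BAY did at the 2 oxygen levels. The JUN difference was more positive in hypoxia, with 75.9 ± 5.15 CPM with BAY against 176 ± 44.5 CPM without it in normoxia (SD, n = 3 and 5), and at low oxygen 123 ± 5.20 against 121 ± 1.91 CPM (SD, n = 3 each). The JUN interaction was 1.22 (SE 0.25, adjusted p = 0.007), and 1.49 and 0.78 with controls of subset 1 or 2 alone (1.89e-09 and 8.34e-06). EGR2 had an interaction of 0.95 (SE 0.27, adjusted p = 0.0281), which was lost with subset 2 alone (0.47, 0.0838), with limma voom (0.90, limma adjusted p = 0.075) and without any 1 of 7 of the 14 libraries, at 0.82 to 1.01. Those 7 were each of the 3 normoxic libraries with BAY, hypoxic BAY replicates 1 and 3, and hypoxic solvent replicates 1 and 2. With all 24 libraries in 1 fit neither was called (JUN 1.25, adjusted p = 0.058, EGR2 0.98, 0.0756). EGR1 (2.88, SE 1.64) and FOS (1.53, SE 1.01) were not called, at adjusted p = 0.275 and 0.353. With controls of subset 1 alone they were at 3.60 and 2.19, and of subset 2 alone at -0.64 (0.0442) and -0.80 (0.00674), so both were called in opposite directions. Of 10 members 2 had a positive interaction and none a negative one, against 16.8% of 21316 genes called, 8.83% with a positive interaction. DUSP1 was not called (0.70, SE 0.36, adjusted p = 0.221), with 1.06 (4.56e-08) for subset 1 and 0.04 (0.783) for subset 2.

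With both subsets pooled, JUNB, FOSB, EGR2 and IER2 were higher with TGF-β1 and EGR1, FOS and JUN were lower. The falls of EGR1 and FOS were not seen in subset 2. JUNB stood at 295, 286, 246, 242 and 240 CPM in replicates 1 to 5, above all solvent controls (29.2 to 61.5), at 2.38 (SE 0.20, adjusted p = 1.94e-08). FOSB stood at 27.1, 24.7, 17.8, 16.6 and 16.5 CPM, also above all controls (1.68 to 5.47), at 2.44 (SE 0.32, adjusted p = 6.13e-06). EGR2 stood at 25.0, 25.0, 17.1, 16.6 and 17.0 CPM, again without overlap with controls (3.84 to 7.21), at 1.76 (SE 0.22, adjusted p = 2.26e-06). These 3 rises were present within each subset, at 2.22 and 2.98 for JUNB, 2.36 and 3.23 for FOSB, and 1.83 and 2.03 for EGR2 in subsets 1 and 2. IER2 rose from 67.3 ± 21.4 to 99.9 ± 14.8 CPM (SD, n = 5 each) at 0.52 (SE 0.18, adjusted p = 0.0212), with 0.45 and 0.98 within the subsets. The IER2 call was lost without solvent replicate 4 (0.40) or TGF-β1 replicate 1 (0.46) or 2 (0.47).

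The falls with TGF-β1 depended on the subset. EGR1 went to 34.7 and 34.3 CPM from 124 to 140 CPM in subset 1 (-1.95, adjusted p = 2.17e-07) and to 7.29 to 7.64 CPM from 6.58 and 7.15 CPM in subset 2 (0.08, 0.392), for a pooled value of -2.20 (SE 0.85, adjusted p = 0.035). FOS was lower in subset 1 (-1.93, 9.65e-07) and higher in subset 2 (0.65, 0.000105), pooled at -1.56 (SE 0.49, adjusted p = 0.0117). JUN was lower in both, at -0.48 (1.64e-08) and -0.72 (7.79e-11), pooled at -0.74 (SE 0.27, adjusted p = 0.0272). With subset as a term in the fit EGR1 and JUN stayed called, at -1.30 and -0.61, FOS did not (-1.01, adjusted p = 0.0835), and EGR3 was called at 0.40 (0.0243). Without any 1 of solvent replicates 1, 2 and 5 or TGF-β1 replicates 3, 4 and 5 the pooled calls of EGR1 (-2.01 to -1.91) and JUN (-0.69 to -0.65) were lost. With limma voom EGR1 (-1.56, limma adjusted p = 0.179) and FOS (-0.98, 0.166) were not called, and with no filter on low counts EGR1 (-2.20, adjusted p = 0.0703) and JUN (-0.74, 0.0587) were not. In a fit of the 2 groups alone EGR1 was not called either (-2.17, adjusted p = 0.0692).

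DUSP1 stood at 40.9 to 47.4 CPM with TGF-β1, inside the control range, and was not called (-0.24, adjusted p = 0.294). It was lower in subset 1 (-0.46, 3.38e-06) and higher in subset 2 (0.40, 1.58e-06). EGR3 stood at 0.370 to 0.764 CPM and was not called (0.17, SE 0.35, adjusted p = 0.707), with 0.68 (0.0413) in subset 2. Of 10 members 4 were called higher and 3 lower, against 62.0% of 21639 genes, 29.5% higher and 32.5% lower, so the share called, 7 of 10, lay near that of all genes. The median was 0.31 for the members and -0.04 for all genes. Within subset 1 there were 4 higher and 4 lower, against 62.9% of genes called, and within subset 2 there were 7 higher and 1 lower, against 62.3%. The summed fibroblast markers were 292 to 305 CPM with TGF-β1 and 107 to 132 in controls, mostly COL1A1 (228 against 36.0 CPM), with COL1A2 and COL3A1 below 0.1 CPM in both, and their part was not tested.

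**Figure D4:**
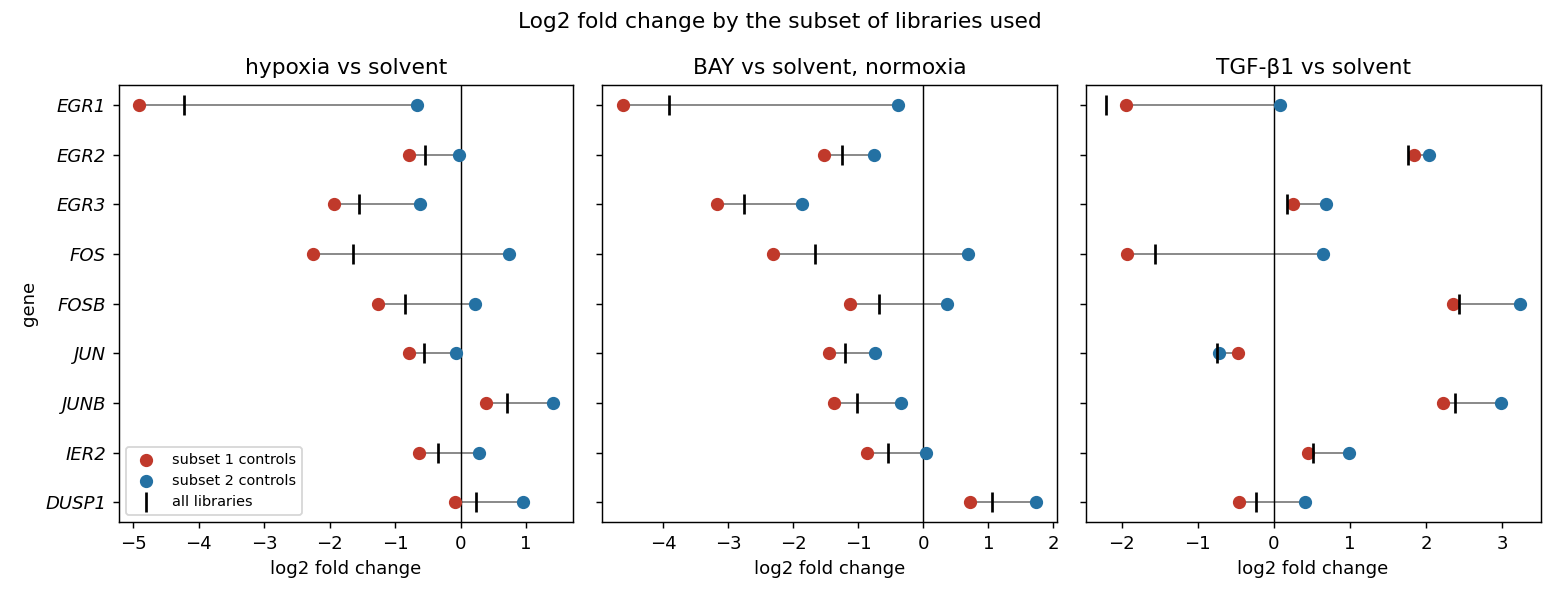
Log2 fold change of 9 members against solvent controls of subset 1 (red), subset 2 (blue) and all libraries (black bar), for hypoxia, BAY in normoxia and TGF-β1 (within the subset for TGF-β1). FOS changes sign between subsets in all 3 panels (0.74, 0.68 and 0.65 in subset 2), while JUNB and FOSB with TGF-β1 stay above 2.2.

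Adding BAY to TGF-β1 raised FOSB and DUSP1. FOSB stood at 116, 111, 57.1, 66.5 and 60.3 CPM in replicates 1 to 5, above all libraries with TGF-β1 alone (16.5 to 27.1), at 2.01 (SE 0.30, adjusted p = 8.54e-05). DUSP1 stood at 192, 189, 144, 157 and 144 CPM, likewise without overlap (40.9 to 47.4 with TGF-β1 alone), at 1.94 (SE 0.20, adjusted p = 1.45e-06). Both rises were present within each subset, at 2.14 and 1.87 for FOSB and 2.05 and 1.86 for DUSP1. The FOSB level with both agents, 82.2 ± 28.8 CPM (SD, n = 5), compares with 3.66 ± 1.77 CPM in solvent (SD, n = 5) and 2.26 ± 0.233 CPM with BAY alone (SD, n = 3).

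The other members changed less with BAY on TGF-β1. EGR2 stood at 34.4, 35.1, 19.8, 19.1 and 21.4 CPM and was not called (0.38, SE 0.21, adjusted p = 0.202). Each of its 5 replicates lay above the same-numbered library with TGF-β1 alone, as did those of FOS and JUNB, while EGR1 lay below in all 5 pairs. With the replicate number as a block over all 18 libraries, EGR2 was called at 0.36 (adjusted p = 0.0435) and FOS, JUNB and EGR1 were not. That block also joins same-numbered libraries of groups that showed no pairing. The main test was unpaired and no fit paired only TGF-β1 with and without BAY, so an uncalled member here was not tested by pairs. Within the subsets EGR2 was at 0.49 (2.99e-05) and 0.27 (0.0016). EGR1 was not called (-0.32, SE 0.84, adjusted p = 0.827), with -0.36 (0.00813) and -0.22 (0.0336) within subsets 1 and 2. JUNB at 0.22 (adjusted p = 0.424) had about the same size within both, at 0.23 (1.21e-05) and 0.22 (0.000807), where it was called. FOS was at 0.37 (0.644), with 0.31 (0.102) and 0.42 (0.00269) within the subsets. JUN (-0.03, SE 0.27), IER2 (0.02, SE 0.18) and EGR3 (0.11, SE 0.35) were not called, at adjusted p = 0.951, 0.965 and 0.859. In all 2 members were called higher and none lower, against 29.5% of 21639 genes, 13.9% higher and 15.6% lower. Within subset 1 this was 4 higher and 1 lower against 34.6% of genes, and within subset 2 it was 5 higher and 1 lower against 35.5%.

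The interaction of TGF-β1 and BAY compared the BAY effect on TGF-β1 with that in normoxic solvent. It was positive for FOSB at 2.71 (SE 0.51, adjusted p = 0.00105), EGR3 at 2.90 (SE 0.60, 0.00169), EGR2 at 1.65 (SE 0.34, 0.00223), JUNB at 1.27 (SE 0.29, 0.00515) and DUSP1 at 0.91 (SE 0.29, 0.0371). For EGR3, EGR2 and JUNB it set a fall with BAY in solvent beside an uncalled value on TGF-β1. For FOSB it set a rise on TGF-β1 beside an uncalled value in solvent, and for DUSP1 a larger rise beside a smaller one. Of 10 members 5 had a positive and none a negative interaction, against 20.7% of 21639 genes called, 13.7% with a positive interaction. With subset 2 libraries and all BAY libraries, 5 were positive too, against 23.7% of genes called: FOSB (1.52), EGR3 (2.00), EGR2 (1.03) and JUNB (0.57) as before, and JUN (0.70, adjusted p = 4.46e-07), while DUSP1 was not called (0.13, 0.111). The DUSP1 call was lost without any 1 of 11 of the 18 libraries, at 0.79 to 0.92, and with no filter on low counts (0.90, adjusted p = 0.0907). Those 11 were each library with BAY alone, solvent replicates 1, 2 and 5, TGF-β1 replicates 3, 4 and 5, and TGF-β1 with BAY replicates 1 and 2. EGR1 (3.62, SE 1.37, adjusted p = 0.076), FOS (2.07, 0.068) and JUN (1.19, 0.0593) were not called. With subset 2 alone EGR1 was at 0.17 (0.303) and FOS at -0.26 (0.223). DESeq2 and the fit of all 24 libraries each called 8 members, among them EGR1, FOS and JUN.

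Other genes of the pathway were taken from 4 lists. Of 36 further immediate-early genes 34 were tested. Counts of each list stand beside the share of all genes called, and medians of its log2 fold changes beside those of all genes, which were -0.02 in hypoxia, 0.00 with BAY in normoxia, -0.03 with BAY in hypoxia, -0.04 with TGF-β1 and 0.01 with BAY on TGF-β1. In hypoxia 12 rose and 13 fell (60.8% of all genes called), with a median of 0.02. With BAY 9 rose and 16 fell in normoxia (43.9% of all genes), with a median of -0.41, and 12 rose and 10 fell in hypoxia (37.9%), with a median of 0.09. With TGF-β1 11 rose and 13 fell (62.0%), with a median of -0.04, and with BAY on TGF-β1 9 rose and 7 fell (29.5%), with a median of -0.002. The oxygen interaction was positive for 13 and negative for 2 (16.8% of all genes called), and that of TGF-β1 positive for 9 and negative for 6 (20.7%). FOSL2, a FOS family member, rose in hypoxia from 106 ± 13.3 to 368 ± 1.47 CPM (SD, n = 5 and 3; 1.79, SE 0.07, adjusted p = 5.66e-12). It was also called higher with BAY in normoxia (2.08) and in hypoxia (1.35), with TGF-β1 (0.735) and with BAY on TGF-β1 (0.629). NR4A3, an orphan nuclear receptor, rose with BAY from 0.246 ± 0.0154 to 2.56 ± 0.151 CPM in normoxia (SD, n = 5 and 3) and at low oxygen from 0.675 ± 0.186 to 6.32 ± 0.496 CPM (SD, n = 3 each), at 3.38 and 3.21. CCN1 and CCN2, matricellular protein genes, fell with BAY in normoxia by 2.53 and 3.06 on the log2 scale. Both also fell in hypoxia (-1.93 and -3.21) and with BAY on TGF-β1 (-1.38 and -1.58). With TGF-β1 and with BAY in hypoxia CCN1 was called lower (-2.095 and -1.11) and CCN2 was not called (-0.573 and -0.838). CCN1 and CCN2 were 2.11 and 2.98 times as high in subset 1 as in subset 2 of the controls. In solvent 5 of 32 of these genes at 1 CPM or more were at least 2-fold higher in subset 1, against 0.376% of 14908 genes. None was 2-fold lower. With controls of subset 1 alone 11 rose and 21 fell with BAY in normoxia (49.8% of all genes called), and with subset 2 alone 16 rose and 15 fell (33.7%).

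Of 19 transcriptional regulators and AP-1 partners 18 were tested, and none of them differed 2-fold between the subsets of the solvent controls. Of 14908 genes 0.376% were at least 2-fold higher in subset 1, so none of 18 lies near that share. CREM, a CREB family gene with a repressor form, rose with BAY in normoxia from 10.4 ± 0.793 to 31.3 ± 0.837 CPM (SD, n = 5 and 3; 1.60, SE 0.05, adjusted p = 7.44e-12), in hypoxia by 1.37 and on TGF-β1 by 1.40. ELK3, a serum response factor partner, rose with TGF-β1 from 23.9 ± 2.11 to 150 ± 16.4 CPM (SD, n = 5 each; 2.59, adjusted p = 7.98e-15). SRF, the serum response factor itself, fell with BAY on TGF-β1 by 0.25. It also fell with BAY in normoxia (-0.568), in hypoxia (-0.405) and with BAY in hypoxia (-0.309), and rose with TGF-β1 (0.248). In this list 6 rose and 9 fell in hypoxia (60.8% of all genes called), with a median of -0.085. With BAY 6 rose and 6 fell in normoxia (43.9%) and 4 and 4 in hypoxia (37.9%), with medians of -0.04 and 0.04. With TGF-β1 9 rose and 5 fell (62.0%), and with BAY on TGF-β1 4 rose and 2 fell (29.5%), with medians of 0.04 and 0.02. Interactions were positive for 4 with oxygen (16.8%) and 6 with TGF-β1 (20.7%), and negative for none in either.

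Of 18 ERK feedback inhibitors and targets 16 were tested. ERRFI1, an inhibitor of the EGF receptor, rose in hypoxia from 56.9 ± 13.5 to 275 ± 25.3 CPM (SD, n = 5 and 3; 2.26, SE 0.16, adjusted p = 1.51e-07). DUSP10, a phosphatase of p38 and JNK, rose with TGF-β1 from 18.0 ± 1.15 to 54.3 ± 2.43 CPM and with BAY on TGF-β1 to 92.7 ± 2.11 CPM (SD, n = 5 each), at 1.54 and 0.79. SPRY1, an ERK inhibitor, fell with TGF-β1 (-2.40) and with BAY in hypoxia (-1.07). In this list 4 rose and 6 fell in hypoxia, a share near the 60.8% of all genes called, with a median of -0.03. With BAY 4 rose and 6 fell in normoxia (43.9% of all genes) and 5 and 5 in hypoxia (37.9%), with medians of -0.01 and 0.10. With TGF-β1 10 rose and 3 fell (62.0%), and with BAY on TGF-β1 6 rose and 2 fell (29.5%), with medians of 0.35 and 0.14. Interactions were positive for 4 and negative for 2 with oxygen (16.8%), and 5 and 1 with TGF-β1 (20.7%). DUSP5 and DUSP6, phosphatases of ERK, were 1.94 and 1.81 times as high in subset 1 as in subset 2 of the controls.

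The list of 11 heat shock genes, as an account of general stress, was tested whole. Of these HSPA1A, HSPA1B and HSPA6 averaged only 0.275, 0.653 and 0.761 CPM in solvent, where depth limits them. They stay in the counts and medians, which therefore speak mainly of the other genes of the list. In hypoxia 1 rose and 7 fell (60.8% of all genes called), with a median of -0.88 and with HSPH1, a chaperone, falling from 168 ± 3.06 to 66.0 ± 1.82 CPM (SD, n = 5 and 3; -1.37). With BAY none rose and 7 fell in normoxia (43.9% of all genes called), and none rose and 8 fell in hypoxia (37.9%), with medians of -0.41 and -0.43 and HSPB1 at -0.96 and -0.69. With TGF-β1 8 rose and none fell (62.0%), with a median of 0.63 and HSPB1 at 0.72. With BAY on TGF-β1 1 rose and 6 fell (29.5%), with a median of -0.16. Interactions were negative for 2 and positive for none with oxygen (16.8%), and positive for 5 and negative for none with TGF-β1 (20.7%). No heat shock gene at 1 CPM or more, of 8, differed 2-fold between the subsets of the solvent controls. Of 14908 genes 0.376% were at least 2-fold higher in subset 1, so none of 8 lies near that share.

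The 5 genes whose log2 CPM over the 24 libraries followed EGR1 most closely were YTHDF2 (Pearson r = 0.931), SRSF8 (0.924), MIRLET7A1HG (0.906), TDRD7 (0.902) and CCN2 (0.902). The 24 points share the subset split, so these values describe it as much as the treatments. YTHDF2, a reader of methylated adenosine in RNA, averaged 138 CPM in subset 1 of the controls, 116 in subset 2 and 102 with BAY in normoxia. For CCN2 the corresponding levels were 94.0, 31.5 and 8.20 CPM.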

How the data were processed

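The deposited values are estimated counts per Ensembl gene, from Salmon on GRCh38 (hg38) per the submitters' processing notes, which also name DESeq2. The sources used here give no version, annotation release or strand setting, so reads of overlapping genes or of copies of 1 gene may not be separated. The estimated counts were rounded. In edgeR 4.0.16 (R 4.3.3) libraries were scaled by TMM, low genes removed by filterByExpr, and contrasts fitted with robust quasi-likelihood F-tests (2-sided) on 14 libraries for hypoxia and on 18 normoxic libraries for TGF-β1, with Benjamini-Hochberg adjustment over all genes. The SE is the absolute log2 fold change over the square root of F, and so approximate.

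The members and lists were chosen with earlier results of these data known. Named genes are all members, genes among the 3 largest called of each list in a comparison, and the 5 most like EGR1. DUSP5 and DUSP6 were named after their values were seen. The same search for IER3 is left out, since it had almost no counts. RPS6KA1 and DUSP16 were not in the table. HSPA1A and HSPA1B lie in the same region as IER3. Symbols matched 58919 IDs. Promoters are from RefSeq.

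All 39 replicate pairs differed beyond sampling noise (chi-square per degree of freedom at least 5.17). Deviations from the group mean correlated above 0.1 in every same-numbered pair only for hypoxia with and without BAY (3 pairs) and TGF-β1 with and without BAY (5 pairs). The numbers, which the labels give, may pair samples there. The main test was unpaired, and no fit paired only those groups. In the second case the same numbers also share a subset. Alternatives were DESeq2 1.42.0, limma 3.58.1 voom, upper-quartile scaling, no filter, other sets of libraries, the replicate block and leaving out each library. The subset fits were added after seeing the data, and their adjusted p and calls are descriptions.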

Additional observations from a re-analysis of the deposited data

Results flagged for a closer look

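The BAY effect differed between conditions, by the interaction test, for 7 results. With oxygen these were EGR2 (0.95) and JUN (1.22), with BAY log2 fold changes of -1.25 and -1.20 in normoxia and -0.30 and 0.02 in hypoxia. With TGF-β1 they were EGR3 (2.90), FOSB (2.71), EGR2 (1.65), JUNB (1.27) and DUSP1 (0.91). All 7 use the split solvent controls. With controls of subset 2 alone JUN with oxygen was at 0.78, and EGR3, FOSB, EGR2 and JUNB with TGF-β1 were at 2.00, 1.52, 1.03 and 0.57, all called, while EGR2 with oxygen (0.47) and DUSP1 with TGF-β1 (0.13) were not. No sample stood apart from its group by Dixon's test in 30 sets of a member and a group of 5 libraries, a test that does not see a split of 2 against 3.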

How the results depend on the processing

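The subset of solvent controls changed more results than any other choice tried. Against subset 2, values turned sign for FOS (0.74), FOSB (0.22) and IER2 (0.28) in hypoxia, FOS (0.68), FOSB (0.36) and IER2 (0.047) with BAY in normoxia, EGR1 (-0.64), FOS (-0.80), JUNB (-0.10) and IER2 (-0.18) in the oxygen interaction, EGR1 (0.084), FOS (0.65) and DUSP1 (0.40) with TGF-β1, and FOS (-0.26) and IER2 (-0.013) in the TGF-β1 interaction. With subset 1 they did for DUSP1 in hypoxia (-0.083) and IER2 with BAY on TGF-β1 (-0.003). Members called went from 5 to 8 in hypoxia, from 2 to 8 in the oxygen interaction and from 5 to 9 in the TGF-β1 interaction with subset 1. The share of all genes called there also went from 60.8% to 62.6%, 16.8% to 27.6% and 20.7% to 32.7%. With BAY on TGF-β1 members called went from 2 to 5 and 6 within subsets 1 and 2. The share of all genes called there went from 29.5% to 34.6% and 35.5%. Fitting only the groups compared gave 3 in hypoxia and 4 with BAY in hypoxia. All 24 libraries in 1 fit gave 2 with BAY in hypoxia, 0 in the oxygen interaction (edgeR; 3 at an unadjusted p below 0.05, and 2 called by DESeq2) and 8 in that of TGF-β1. DESeq2 gave 2 with BAY in hypoxia and 8 in the TGF-β1 interaction, and limma voom 1 in the oxygen interaction. The replicate block gave 2 with BAY in hypoxia (EGR3 at -1.73), 3 with BAY on TGF-β1 (EGR2 at 0.36) and 6 in the TGF-β1 interaction (JUN at 1.32, adjusted p = 0.00238), added IER3 in hypoxia (6 called), and changed no other member's call. Upper-quartile scaling changed none. Leaving out 1 library gave 2 to 8 members in hypoxia, 6 to 9 with BAY in normoxia, 1 to 2 with BAY in hypoxia, 1 to 3 and 4 to 9 in the oxygen and TGF-β1 interactions, 5 to 7 with TGF-β1 and 2 in each case with BAY on TGF-β1. Shares of all genes called moved too. In hypoxia the share was 55.1% at 2 members and 60.5% at 8. It was 11.7% to 15.3% at 1 member in the oxygen interaction and 21.7% at 9 in that of TGF-β1. Where counts above stand without a share of all genes, they are not read as particular to the members. Leaving out 1 library turned uncalled values of JUN with BAY in hypoxia (-0.011 to 0.044), EGR3 with TGF-β1 (-0.013 to 0.30), and EGR1 (-0.68 to 0.039), EGR3 (-0.085 to 0.25), JUN (-0.20 to 0.13) and IER2 (-0.043 to 0.073) with BAY on TGF-β1. The causes were not tested. FOSB and DUSP1 with BAY on TGF-β1, and JUNB, FOSB and EGR2 with TGF-β1, kept direction and call in every alternative. So did EGR2, EGR3, JUN, JUNB and DUSP1 with BAY in normoxia. The same held for DUSP1 with BAY in hypoxia, where no subset fit was run, and for EGR2, EGR3, FOSB and JUNB in the TGF-β1 interaction. EGR3 lies below 1 CPM, where depth limits it.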
